A study of Homo sapiens
Mus musculus and Homo sapiens with 2 samples.

Results

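The A549 cells described here carried the largest share of newly made RNA in their culture. For each cell, its newly synthesised counts, as called by the authors, were divided by its whole counts. The members were chosen by this share, as the 25% of cells with the highest values at each treatment time. They are called high-share cells here and numbered 1854 of 7404 A549 cells, in a series of 13711 cells. Their numbers were 288, 298, 262, 351, 293 and 362 in the order of the times, from 0 to 10 h. The 1849 cells with the lowest 25% of shares at the same times, called low-share cells, were the comparison.

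A549 is an established human lung adenocarcinoma line of epithelial origin. The cells grew with dexamethasone, a synthetic glucocorticoid, for 0, 2, 4, 6, 8 or 10 h, and the 0 h cells received ethanol, the solvent, instead. The protocol gives the dose as 100 nM and the treatment label as 101 nM. All 6 times were given 200 µM 4-thiouridine (S4U) for the last 2 h, so no A549 cells without S4U were used here, and the background of the call of new molecules in A549 is unknown. Cells were fixed and read by single-cell combinatorial indexing. Each time is treated below as 1 culture, since the labels name 1 A549 sample and do not give the number of dishes. The p-values therefore rest on the spread between these 6 cultures, and cells were never used as replicates. The test, edgeR's quasi-likelihood method, shares its estimates of spread across genes. A p-value thus does not rest on a gene's own 6 cultures alone.

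S4U is a uridine analogue that cells build into RNA as they make it. After a chemical reaction with iodoacetamide it is read as a T-to-C change, which marks molecules made during the labelling. A freshly made transcript still holds its introns, and most messenger RNAs lose them soon after synthesis, so intronic molecules are mostly young. Long-lived messengers such as those of ribosomal proteins renew slowly, whereas messengers of immediate early regulators turn over fast. The libraries were primed with anchored oligo-dT, which binds poly(A) tails and can also bind runs of A within introns. Whole RNA below means all counts, new RNA the counts called newly synthesised, and pre-existing RNA the remainder.

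The new share of the high-share cells was close to double that of the low-share cells in every culture. Pooled over the cells of a culture, it was 26.7% in the lowest culture, 27.8% at the median and 29.9% in the highest. In the low-share cells it was 13.6%, 14.7% and 15.8%. The ratio between them lay between 1.86 and 2.02. These values restate the choice of cells and were not tested. The groups were parts of a continuous range. The lowest member of the high-share cells had a share of 22.9% to 25.4% depending on the culture, and the highest cell just outside had 22.8% to 25.4%. Single cells ran from 1.09% to 77.8%.

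**Figure D1:**
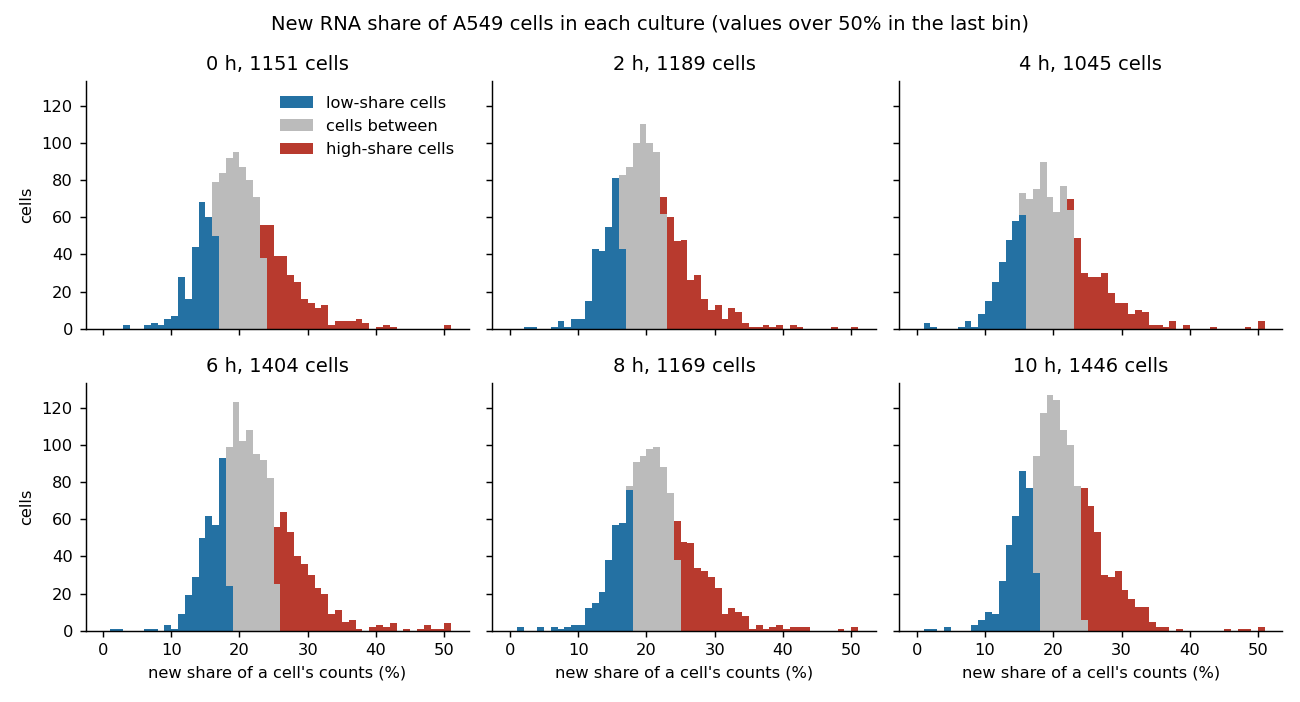
Number of A549 cells (y axis) by new share of the cell's counts (percent, x axis) in each culture, with low-share cells, the cells between and high-share cells stacked in colour. Each culture forms 1 continuous peak, and the high-share cells fill its upper side from 22.9% to 25.4% upwards, depending on the culture.

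The high-share cells held more intronic RNA and about the same amount of exonic RNA. The median high-share cell had 6122 intronic counts at the median culture, against 2316 in low-share cells, and the ratio ran from 2.45 to 3.30 over the cultures. The same cells had 22000 and 22910 exonic counts, with a ratio from 0.882 to 1.07. Intronic counts were thus higher in all 6 cultures, while exonic counts lay on both sides of equality. New counts per cell were 7638 against 3633, and pre-existing counts were 20260 against 21330. The intronic percent of counts rose in steps with the new share, from 9.16% through 13.1% and 16.1% to 22.2% at the median culture.

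Both kinds of RNA were newer in the high-share cells. Of their exonic counts 15.3% were new, against 10.7% in the low-share cells, a ratio of 1.39 to 1.44. Of their intronic counts 71.8% were new, against 55.8%. Given the intronic percent of the low-share cells, the high-share cells' own exonic and intronic new shares would give a new share of 20.3%, which is 1.37 times that of the low-share cells. The remaining distance to 27.8% went with the larger intronic percent. All of these are quantities of the same contrast as the rule and are given without a test.

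**Figure D2:**
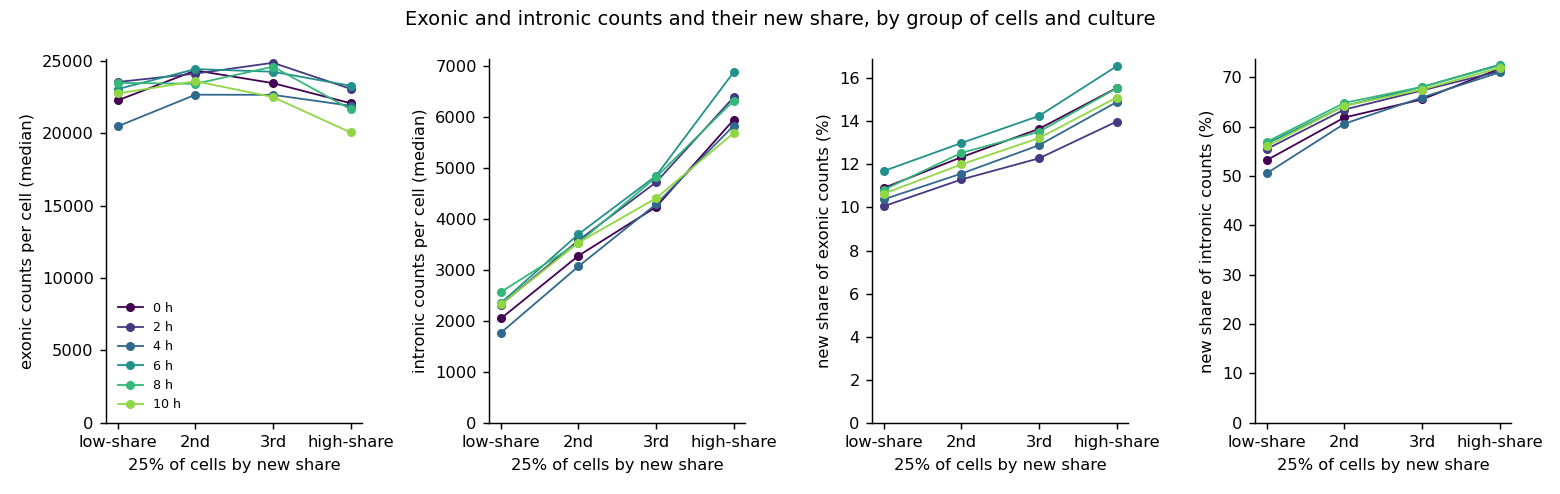
Median exonic and intronic counts per cell and new percent of exonic and of intronic counts (y axes) for the cells in each 25% step of new share (x axis), with 1 line per culture. Intronic counts climb from 2316 to 6122 at the median culture, both new percents climb in every culture, and exonic counts stay near 22000 in the outer groups.

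Other properties of the cells also differed between the groups. The median high-share cell had 28100 counts in all against 25050, a ratio of 1.03 to 1.26, with 27130 and 28370 in the groups between. After each cell was thinned to 10000 counts, leaving out 173 shallower cells, it held 4332 genes against 4135 (unthinned 7070 and 6466). The authors' doublet score was 0.0629 against 0.0552 at the median culture. It was higher in the groups between, at 0.0690 and 0.0733, so it did not follow the share in order. A part of each cell name held 1 of 378 index sequences, each found in 1 culture only. It was taken here to be the index of reverse transcription. This index held 13.4% to 19.3% of the variance of the share within a culture, where 4.35% to 6.03% would be held by unrelated indexes. Among the 179 indexes with at least 20 cells, between 0% and 70.0% of cells were high-share cells. Ranking the cells within bins of depth kept 93.7% of the members and ranking within each index kept 77.3%. No cell name was shared with the mixture library. The effect of these rankings on the calls is given below, and the part of the doublet score in the results was not tested.

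Ranking within bins of the intronic percent gave a different set. It kept 698 of the 1854 members (37.7%) and put 218 of them among the lowest 25%. Cells highest within such bins had a new share of 23.0% against 18.1% for the lowest, at intronic percents of 15.7% and 15.1%. Several results below changed with this ranking, called the intronic ranking.

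The cells carried the markers of A549. Over all A549 cells ALDH1A1, a retinal dehydrogenase, stood at 6730 CPM (counts on a per-million scale), KRT8 at 3820, AKR1B10 at 3610 and KRT18 at 3060. EPCAM and CDH1, usual epithelial markers, were low at 4.78 and 20.9 CPM. Of the HEK293T markers the highest was LIN28B at 20.3 CPM, and of the fibroblast markers COL1A1 at 9.45 CPM. Endothelial and leukocyte markers reached at most 1.02 CPM (CD14). In whole RNA, 9 of 11 A549 markers were lower in high-share cells and 0 higher, and under the ranking within intronic bins 1 was lower and 7 higher. Over all genes tested 33.9% were lower and 34.6% higher, and under that ranking 15.0% and 15.1%.

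Composition was compared between high-share and low-share cells by summing counts over the cells of each group in each culture, giving 12 sums. A gene that helps to rank a cell high cannot then be tested fairly in it, so genes were split by odd and even identifier number. Each set was tested in cells ranked on the other set, and these rankings shared 97.1% of the members with the rule. The CPM values below are for the members themselves, while each log2 fold change, with its standard error, is the test in the re-ranked cells with edgeR's quasi-likelihood method. A positive value is higher in high-share cells. Adjusted p-values are Benjamini-Hochberg values over all genes tested, with a threshold of 0.05. Whole sums of the high-share cells ran from 7855219 to 11644872 counts and new sums from 2155678 to 3486936. Counts given for a gene list are of its genes that passed the filter on low counts. Sums of the low-share cells ran from 6356598 to 9809842 and from 864445 to 1525393.

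Many genes differed in whole RNA, in both directions. Of 15386 tested, 5326 were higher in high-share cells (34.6%) and 5219 lower (33.9%). The higher genes moved further, with 1241 higher and 61 lower by at least 2-fold. Scaling to total counts in place of edgeR's trimmed mean of M values shifted the median gene by 0.115 on the log2 scale. It turned the split into 6472 higher and 3937 lower, or 62.2% of the calls higher against 50.5%. Directions of genes near the middle therefore rest on the scaling. Within bins of depth 95.5% of the higher and 96.9% of the lower calls were made again, and within each index 87.0% and 86.2%. With cells ranked inside intronic bins, the test called 2312 higher (15.1%) and 2307 lower (15.0%) of 15360. Of the calls above, 24.4% of the higher and 24.7% of the lower were then made in the same direction, and 479 and 524 in the opposite one.

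The largest rises in whole RNA were in genes of long span, from 320 kb for PITPNC1 to 1900 kb for LRP1B among the 10 named here. PDE4B, which breaks down cyclic AMP, stood at 211 CPM in the lowest culture of high-share cells, 295 at the median and 430 in the highest, against 34.8, 57.4 and 84.4 in low-share cells. Every culture of high-share cells lay above every culture of low-share cells. These CPM values are for members that each gene's own counts helped to rank. The genes of largest change were also named only if their direction was the same in every culture. Separation of the groups, here and below, is therefore a description and not separate support for a difference. How often it occurred over all genes is not given. Its log2 fold change was 2.27 ± 0.0409 (adjusted p = 1.03e-18). SYT1, the calcium sensor of vesicle release, stood at 178, 216 and 321 CPM against 37.1, 45.4 and 57.0, again without overlap (log2 2.18 ± 0.0475, adjusted p = 1.03e-18). Under the intronic ranking both were still higher, by 0.86 and 0.76 on the log2 scale.

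The other genes with the largest rises were LINC00478, a long noncoding RNA, PITPNC1, a phosphatidylinositol transfer protein, RBMS3, an RNA-binding protein, PDE7B, another phosphodiesterase, and PRKD1, a protein kinase. Their log2 fold changes ran from 2.02 for PRKD1 to 2.21 for LINC00478, and their groups of cultures did not overlap. NKAIN3 rose by 2.05 ± 0.191, and within bins of the intronic percent its value was 0.29 (adjusted p = 0.243). Single cells weighed heavily in a pair of others. For the adhesion gene CADM2 (26.1, 35.0 and 50.0 CPM against 4.49, 6.86 and 7.58, log2 2.33 ± 0.107), 1% of cells held 52.1% of its counts. Without those cells the fold change over the members was 0.93 in place of 2.53. For LRP1B, a member of the LDL receptor family (7.26, 17.8 and 123 CPM against 4.79, 5.37 and 8.87, log2 2.24 ± 0.33), the groups overlapped and 1% of cells held 58.9% of the counts, with 682 in a single cell.

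Nuclear noncoding RNAs were not uniform. MALAT1, an abundant RNA retained in nuclear speckles, stood at 6410, 7320 and 8020 CPM against 2090, 2740 and 3270. The groups were far apart (log2 1.38 ± 0.0445, adjusted p = 1.97e-15). NEAT1, the scaffold of paraspeckles, rose by 1.46, FTX, a noncoding RNA of the X inactivation centre, by 1.72 and KCNQ1OT1, the antisense RNA of the KCNQ1 locus, by 1.71. Since the strand handling of the counts is not given, reads of KCNQ1OT1 and its host gene cannot be told apart. Of the 19 RNAs of this list tested, 9 were higher and 7 lower, beside 34.6% and 33.9% over all genes. Their median was 0.05, against -0.000428 over all genes. Within bins of the intronic percent MALAT1 was 0.14, FTX 0.34 and NEAT1 -0.23, and KCNQ1OT1 was not called (0.17, adjusted p = 0.169).

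**Figure D3:**
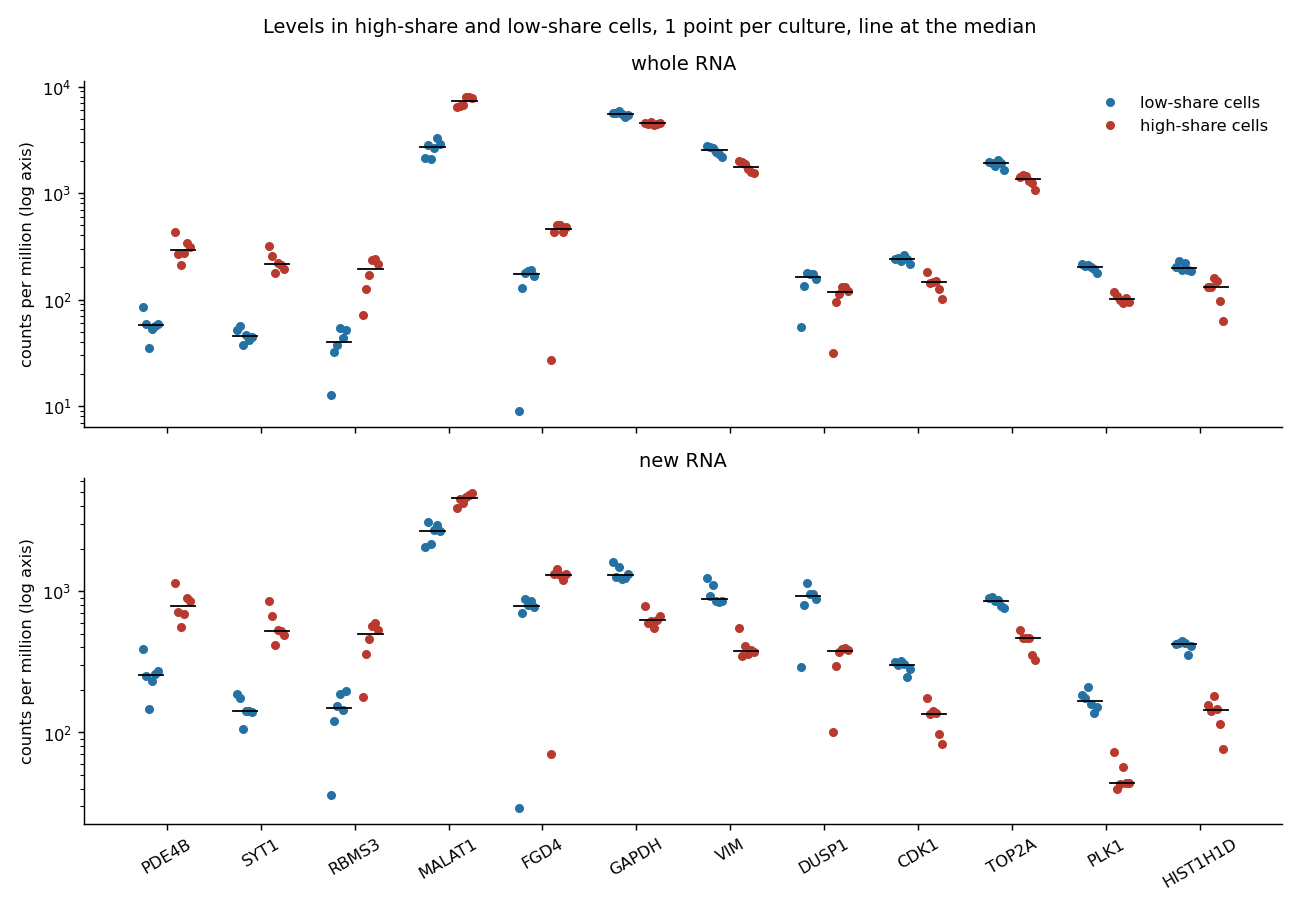
Level in each culture (CPM, log axis) of 12 genes in whole RNA and in new RNA, with 1 point per culture, a line at the median, and low-share and high-share cells in 2 colours. PDE4B, SYT1 and MALAT1 lie higher in high-share cells and PLK1, CDK1, TOP2A, VIM and GAPDH lower, without overlap in whole RNA; the 0 h culture stands apart for FGD4 and DUSP1, which dexamethasone induces.

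Fold change followed gene span. Span is the distance from start to end of a gene in GENCODE 29 (GRCh38), used as a length only, since the authors aligned to hg19. It was found for 12642 of 12789 coding genes tested (98.9%). Coding genes under 10 kb had a median log2 fold change of -0.42 in whole RNA, with 118 higher and 1454 lower of 2090. Genes of at least 300 kb had a median of 0.70, with 530 higher and 14 lower of 720. The medians of the spans between rose in order, at -0.23, 0.04 and 0.43. Spearman's rho between span and fold change across genes was 0.619 (12642 genes, which are not independent). With cells ranked inside intronic bins, rho was 0.150, and 281 of 713 genes of at least 300 kb were higher and 26 lower.

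**Figure D4:**
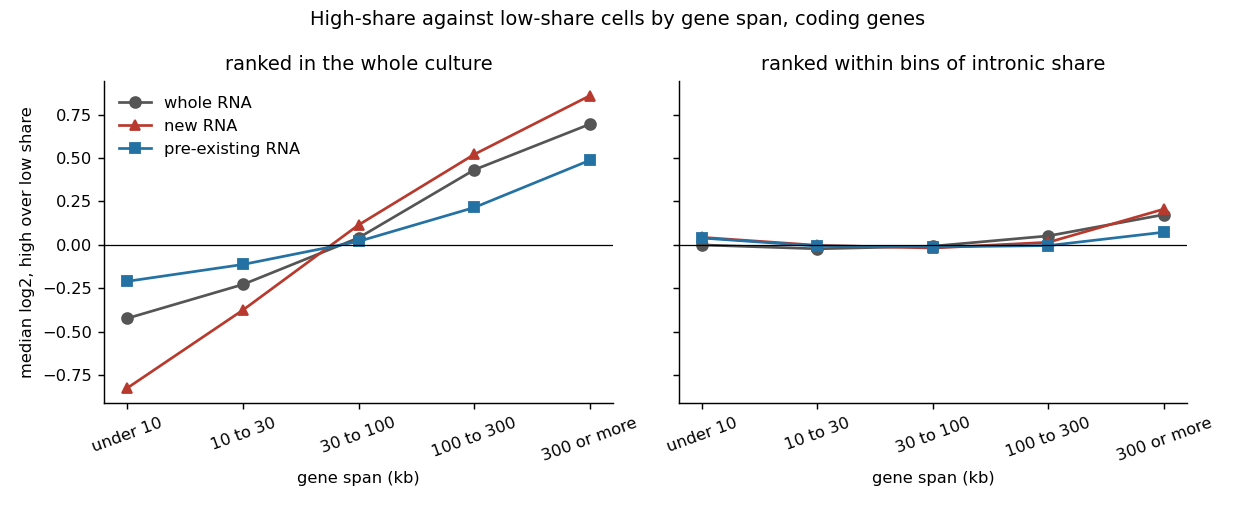
Median log2 fold change, high-share over low-share cells (y axis), of coding genes by gene span (kb, x axis) in whole, new and pre-existing RNA, with the ranking of the rule and the ranking within bins of the intronic percent. Under the first ranking the medians of whole RNA climb from -0.42 for the shortest genes to 0.70 for the longest, and under the second they stay between -0.02 and 0.17.

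The genes lowest in high-share cells were IGFBP1 and, among others, genes of cell division. IGFBP1, which binds insulin-like growth factors, stood at 3.81, 11 and 14.4 CPM against 26.0, 42.0 and 51.1. All high-share cultures lay below all low-share cultures (log2 -2.04 ± 0.128, adjusted p = 2.98e-11), and within bins of the intronic percent it was -1.23. PLK1, a kinase that drives entry into and passage through mitosis, stood at 92.3, 101 and 118 CPM against 178, 203 and 218. Its groups did not overlap (log2 -1.11 ± 0.041, adjusted p = 1.48e-15). UBE2C, the ubiquitin-conjugating enzyme of the anaphase-promoting complex, fell too (log2 -1.25), as did CKS2, a subunit of cyclin-dependent kinases (-1.24), and the mitotic kinase AURKB (-1.14). The other genes of this group were FXYD2, which modulates the sodium pump, the transcription factor MXD3, TM4SF4, the keratin KRT19 and AC087645.1, with log2 values from -1.58 to -1.11. Under the intronic ranking PLK1 was -0.80, CKS2 -0.74, AURKB -0.27 and UBE2C -0.15, MXD3 was 0.24, and KRT19 was not called (-0.016, adjusted p = 0.905).

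New RNA was compared in the same way, and here falls were as large as rises. Of 11830 genes tested, 4115 were higher in high-share cells (34.8%) and 4114 lower (34.8%), with 553 and 703 by at least 2-fold. These are shares within the new RNA of each group, so a gene that fell could still have more new molecules per cell. Total scaling moved the median by -0.06 and gave 45.4% of calls higher against 50.0%. Under the intronic ranking the test called 1678 higher (14.2%) and 1323 lower (11.2%) of 11794. Of the calls above, 18.2% of the higher and 7.73% of the lower were then made in the same direction, and 556 and 628 in the opposite one. Depth bins made 95.7% and 96.9% of them again, and ranking within each index 88.8% and 86.2%. Coding genes under 10 kb had a median of -0.82 (22 higher and 1373 lower of 1609), and genes of at least 300 kb a median of 0.86 (418 higher and 8 lower of 479).

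Genes of long span again led the rises in new RNA, from 109 kb for VEGFC to 1900 kb for LRP1B. SYT1 stood at 414, 527 and 849 CPM of new RNA against 106, 143 and 187, without overlap (log2 2.00 ± 0.0549, adjusted p = 1.9e-22). VEGFC, a growth factor of lymphatic vessels, stood at 38.6, 74.3 and 101 CPM against 6.94, 15.7 and 33.0. Its groups also did not overlap (log2 2.00). The cadherin FAT3 (log2 2.65 ± 0.183), the ephrin receptor EPHA5 (2.42), CADM2 (2.39), LRP1B (3.07), PITPNC1 (2.05) and the collagen COL11A1 (2.08) rose too. For EPHA5 and COL11A1, 1% of cells held 42.1% and 54.7% of the counts, and without those cells the fold changes over the members were 0.99 and 0.96. COL11A1 was not called under the intronic ranking (0.15, adjusted p = 0.69). The groups overlapped for SEMA3A, a guidance cue, and for LDLRAD4, whose log2 values were 2.26 and 1.91.

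Falls in new RNA were led by IGFBP1 (log2 -1.96), EDN2, an endothelin (-1.93), MXD3 (-1.92), LGALS1, the lectin galectin-1 (-1.89), C1orf116 (-1.85) and the mitotic genes PSRC1 (-1.83), CDCA3 (-1.79), PLK1 (-1.76), SAPCD2 (-1.73) and UBE2C (-1.73). LGALS1 stood at 18.0, 20.8 and 26.1 CPM of new RNA against 67.2, 74.1 and 104. PLK1 stood at 39.5, 44.0 and 72.4 CPM against 138, 167 and 211. The groups were apart for both. Of these 10 genes, MXD3, LGALS1, PSRC1, CDCA3, PLK1, SAPCD2 and UBE2C had the opposite direction within bins of the intronic percent, with values in the closing part. IGFBP1 (-0.069), EDN2 (-0.13) and C1orf116 (-0.12) were then not called.

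Pre-existing RNA, the counts not called new, also differed. How many of these molecules were made during the labelling and missed by the call is unknown. Of 13797 genes tested, 3652 were higher in high-share cells (26.5%) and 3529 lower (25.6%), and 502 and 23 moved by at least 2-fold. With total scaling, 63.5% of the calls were higher in place of 50.9%, and the median gene moved by 0.07. PDE4B rose by 2.18, the long noncoding RNA RP11-123O10.4 by 1.96, NKAIN3 by 1.91 and MALAT1 by 1.63. IGFBP1 and FXYD2 fell (log2 -2.06 and -1.30). TAGLN, an actin-binding protein, stood at 8.07, 13.3 and 22.8 CPM against 26.8, 29.2 and 43.2, without overlap (log2 -1.16). Across coding genes rho with span was 0.509, and 463 of 648 genes of at least 300 kb were higher and 14 lower. Within bins of the intronic percent the test called 2680 higher (19.5%) and 2808 lower (20.4%) of 13774, and rho with span was 0.00102. Of the calls above, 26.7% of the higher and 31.1% of the lower were made in the same direction, and 572 and 698 in the opposite one. Ranking within each index made 73.7% and 72.5% of them again, and within depth bins 92.7% and 96.5%.

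Messengers of G2 and mitosis were lower in high-share cells in all 3 RNAs. Of the 59 genes of this list tested, 57 were lower and 0 higher in whole RNA, with a median log2 fold change of -0.70, where the median of all genes was -0.000428. In new RNA 54 were lower and 0 higher (median -0.99), and in pre-existing RNA 57 and 0 (median -0.51). Over all genes 33.9%, 34.8% and 25.6% were lower in whole, new and pre-existing RNA. CDK1, the kinase that starts mitosis, stood at 102, 145 and 183 CPM in whole RNA against 214, 240 and 260. The groups did not overlap (log2 -0.86 ± 0.0548). TOP2A, which untangles chromosomes, stood at 1060, 1350 and 1470 CPM against 1630, 1920 and 2040, also apart (log2 -0.65, and -0.33 under the intronic ranking). Of the 743 cells in the highest 10% for the summed list, 36.7% were low-share cells and 12.8% high-share cells.

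Ranking within bins of the intronic percent turned the new RNA of this list round and left the pre-existing RNA. In new RNA 56 of 59 genes were then higher and 0 lower (median 0.83), while in pre-existing RNA 2 were higher and 57 lower (median -0.58). In whole RNA 4 were higher and 48 lower (median -0.36). Over all genes 14.2% were then higher and 11.2% lower in new RNA. These shares were 19.5% and 20.4% in pre-existing RNA, and 15.1% and 15.0% in whole RNA. Under this ranking PLK1 stood at 111, 123 and 140 CPM of new RNA in the upper cells against 56.5, 61.9 and 89.0 in the lower ones (log2 0.90, adjusted p = 2.29e-10). Its pre-existing RNA stood at 123, 134 and 149 CPM against 218, 263 and 299. Neither pair of groups overlapped, and they lay in opposite orders. TOP2A had the same pattern, with 669, 770 and 844 CPM of new RNA against 374, 467 and 548, and 1760, 1890 and 1960 CPM of pre-existing RNA against 1970, 2400 and 2560. CDK1 was higher in the upper cells in whole and in new RNA, at 206, 232 and 257 CPM of whole RNA against 134, 148 and 170.

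Genes of S phase and histones followed with smaller counts. Of 49 S phase genes, 27 were lower and 4 higher in whole RNA (median -0.22), and in new RNA 22 were lower and 12 higher (median -0.16). RRM2, the ribonucleotide reductase subunit that rises in S phase, stood at 276, 329 and 370 CPM of whole RNA against 543, 583 and 630. Its groups were apart (log2 -0.96, and 0.089 under the intronic ranking), while POLA1, the catalytic subunit of DNA polymerase alpha, rose by 0.53. Of 35 histone genes tested out of 75 listed, 24 were lower and 4 higher in whole RNA (median -0.65). Histone genes share much sequence and most of their messengers have no poly(A) tail, so single members are uncertain. The linker histone HIST1H1D stood at 62.7, 131 and 158 CPM against 186, 196 and 230, without overlap (log2 -0.94). With cells ranked inside intronic bins, it was higher by 1.60, as were 20 of 37 histone genes tested, with 7 lower (median 0.55). S phase genes were then 23 higher and 5 lower (median 0.13). Over all genes in whole RNA, 34.6% were higher and 33.9% lower under the rule's ranking and 15.1% and 15.0% under the intronic one. In new RNA 34.8% were higher and 34.8% lower under the rule's ranking. Of the 743 cells in the highest 10% for summed histones, 39.2% were low-share and 10.6% high-share cells, and for S phase genes 28.8% and 20.1%.

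**Figure D5:**
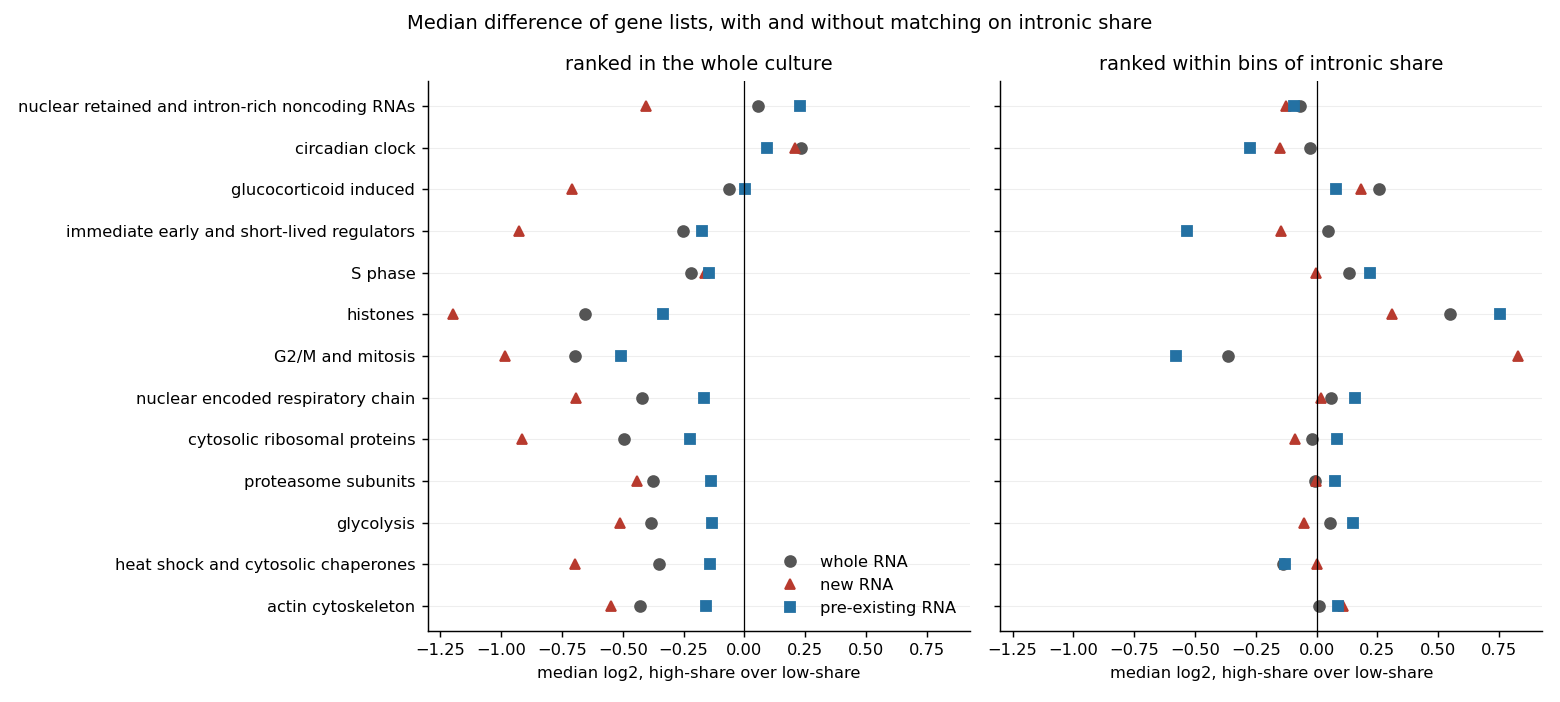
Median log2 fold change, high-share over low-share cells (x axis), of gene lists (y axis) in whole, new and pre-existing RNA under the ranking of the rule and within bins of the intronic percent. The new RNA of the G2/M list lies at -0.99 under the first ranking and at 0.83 under the second, while its pre-existing RNA lies at -0.51 and -0.58.

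Genes of basic cell functions took smaller parts of the RNA of high-share cells as groups. Levels are parts of all counts, of which 22.25% were intronic in high-share cells and 9.16% in low-share cells at the median culture. Of all 2090 coding genes under 10 kb, 1454 were lower and 118 higher in whole RNA. The part of intronic counts and gene span in the falls of these lists was not tested. All 82 messengers of cytosolic ribosomal proteins tested, of 87 listed, were lower in whole RNA (median -0.50), and 81 were lower and 0 higher in new RNA (median -0.91). RPL18, of the large ribosomal subunit, stood at 834, 888 and 929 CPM of whole RNA against 1080, 1160 and 1220. Nuclear encoded respiratory chain genes were lower in 35 of 36 cases with 0 higher (median -0.42), among them COX8A of cytochrome c oxidase at 303, 320 and 388 CPM against 435, 461 and 497. In both genes the groups were apart (log2 -0.50 and -0.62). GAPDH, a glycolytic enzyme, stood at 4340, 4520 and 4690 CPM against 5200, 5570 and 5870 (log2 -0.41 ± 0.0273), without overlap. Under the intronic ranking ribosomal protein genes were 5 higher and 9 lower (median -0.02) in whole RNA and 53 higher and 2 lower in pre-existing RNA. RPL18 and COX8A were then not called in whole RNA (-0.045 and 0.0065), and GAPDH was 0.066. Respiratory chain genes were then 13 higher and 1 lower in whole RNA, and 31 and 0 in pre-existing RNA. Over all genes 15.1% were then higher and 15.0% lower in whole RNA, and 19.5% and 20.4% in pre-existing RNA.

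Further lists of housekeeping and stress genes went the same way in whole RNA, where 33.9% of all genes were lower and 34.6% higher. Heat shock and cytosolic chaperones were lower in 20 of 21 genes with 1 higher (median -0.35), and glycolysis in 14 of 17 with 1 higher (median -0.39). Actin cytoskeleton genes were lower in 25 of 27 with 1 higher (median -0.43), and proteasome subunits in 27 of 31 with 2 higher (median -0.38). For endoplasmic reticulum chaperones and the unfolded protein response, 17 of 23 were lower and 0 higher (median -0.25), and for the integrated stress response 19 of 23 and 1 (median -0.44). NRF2 targets, many of which A549 expresses strongly, were lower in 20 of 29 and higher in 4 (median -0.28). Nucleoside uptake and pyrimidine salvage genes, which handle uridine and its analogues, were lower in 18 of 24 and higher in 2 (median -0.38). Under the intronic ranking heat shock genes were 1 higher and 16 lower of 21, the integrated stress response 0 and 10 of 23, and proteasome subunits 1 and 5 of 31. Glycolysis genes were then 8 higher and 2 lower of 18, NRF2 targets 11 and 10, and actin cytoskeleton genes 7 and 8. Endoplasmic reticulum chaperones and nucleoside genes were each 5 higher and 5 lower. Over all genes 15.1% were then higher and 15.0% lower.

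The machinery of decay showed no common direction in whole RNA, and that of transcription leaned lower. Of 46 genes of RNA polymerase II, elongation and Mediator, 14 were higher and 23 lower in whole RNA (median -0.10). With total scaling they were 18 higher and 20 lower (median 0.03). Of 36 mRNA decay genes, 13 were higher and 12 lower (median 0.03), close to the 34.6% higher and 33.9% lower over all genes. Splicing factors of the SR and hnRNP families were lower in 20 of 32 and higher in 7 (median -0.20). Circadian clock genes were higher in 7 of 16 and lower in 2 (median 0.23). Ribosome biogenesis and MYC targets were lower in 19 of 30 and higher in 4 (median -0.19), and cholesterol and fatty acid synthesis in 17 of 29 and 6 (median -0.20). Ranked inside intronic bins, ribosome biogenesis genes were 0 higher and 19 lower, cholesterol genes 9 and 3, and clock genes 1 and 4. Splicing factors were then 3 higher and 11 lower, decay genes 2 and 7 and the transcription machinery 3 and 18. Over all genes 15.1% were then higher and 15.0% lower. SCD, the desaturase of the cholesterol list, was higher in high-share cells, at 125, 136 and 151 CPM against 83.7, 101 and 112, without overlap (log2 0.34).

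Smaller lists gave mixed counts in whole RNA, to be read beside the 34.6% higher and 33.9% lower over all genes, to which those of YAP/TEAD targets and hypoxia genes were close. Hypoxia genes were 7 higher and 6 lower of 17, YAP/TEAD targets 6 and 6 of 18, and TGF-beta and EMT genes 7 and 9 of 24. Targets of p53 were 5 higher and 10 lower of 25, interferon genes 1 and 8 of 19, and inflammatory cytokines and NF-kB genes 3 and 7 of 15. Epithelial keratins and junctions were 3 higher and 11 lower of 22. Ranked inside intronic bins, keratins and junctions were 8 higher and 1 lower, and p53 targets 7 and 2. Interferon genes were then 3 higher and 0 lower, hypoxia genes 2 and 4, and TGF-beta and EMT genes 7 and 9. These counts stand beside 15.1% higher and 15.0% lower over all genes under that ranking. KRT8 stood at 2140, 2900 and 5160 CPM against 2910, 4200 and 6010, lower within each of the 6 cultures although the groups overlapped (log2 -0.55, and 0.24 under the intronic ranking). VIM, the intermediate filament of mesenchymal cells, stood at 1550, 1770 and 1980 CPM against 2190, 2550 and 2790, with the groups apart (log2 -0.63, and -0.17 under the intronic ranking).

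Short-lived regulators took a smaller part of new RNA in high-share cells. Of 41 immediate early and short-lived genes tested out of 45 listed, 35 were lower and 3 higher in new RNA (median -0.93), and 25 lower and 6 higher in whole RNA (median -0.25). Over all genes 34.8% were lower and 34.8% higher in new RNA, and 33.9% and 34.6% in whole RNA. MYC, a transcription factor of growth, stood at 147, 163 and 178 CPM of new RNA against 313, 339 and 392. IER5, an immediate early gene, stood at 37.1, 38.5 and 71.6 CPM against 94.5, 119 and 203. The groups did not overlap for either gene (log2 -1.0 and -1.49), and DUSP1, a phosphatase of MAP kinases that glucocorticoids induce, fell by 1.31. With cells ranked inside intronic bins, 20 of 40 were lower and 6 higher in new RNA (median -0.15), beside 11.2% and 14.2% over all genes. MYC was then -0.73 (adjusted p = 3.78e-12), at 183, 196 and 230 CPM against 269, 342 and 439, while IER5 was 0.02.

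The new share of single genes was higher in high-share cells almost throughout, by an amount that differed between gene groups. It follows from the choice of cells and was not tested. Over the 7449 genes with at least 1000 counts in each group the median ratio of new shares was 1.63 (10th to 90th percentile 1.19 to 2.21), and 99.3% of genes were higher. Immediate early and short-lived genes were mostly new in both groups, with medians of 81.6% and 76.8% and a median ratio of 1.04 over 28 genes. Glucocorticoid-induced genes had a ratio of 1.1. Ribosomal protein genes, which renew slowly, had 6.83% and 5.56% new counts (ratio 1.26), G2/M genes a ratio of 1.40, S phase genes 1.76, and TGF-beta and EMT genes 1.84.

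The last comparison asked whether the response to dexamethasone differed between high-share and low-share cells. In whole RNA 1 of 15386 genes (0.0065%) was called for a difference in response between the groups, and in new RNA 0 of 11830 (0.0%), by edgeR's quasi-likelihood test of the 5 treated cultures against the single 0 h culture. At an unadjusted p under 0.05 there were 716 and 664 genes, and DESeq2 called 1 and 0. Genes listed as glucocorticoid induced stood above 0 h in both groups, but the list was chosen with earlier results of these data known. Their rise is thus a description and not separate support for induction. The median log2 ratio of treated to 0 h CPM, with 1 added to each, was 2.22 in high-share and 2.23 in low-share cells in whole RNA over 39 genes, and 2.72 and 3.06 in new RNA over 34 genes. None of these genes was called for a difference, and 7 and 3 had an unadjusted p under 0.05. With 1 control culture, the median standard error of the difference was 0.40 in whole RNA over this list.

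The responses of well known target genes are given side by side for whole RNA. FKBP5, a co-chaperone of the glucocorticoid receptor, stood in high-share cells at 54.1 CPM at 0 h and at a mean of 577 CPM over the treated cultures (306 to 699). In low-share cells it stood at 43.5 CPM and at a mean of 489 CPM (150 to 684). The difference of the log2 responses was 0.09 ± 0.321 (adjusted p = 0.999). FGD4, an activator of the GTPase CDC42, stood at 27.2 and 468 CPM in high-share cells and at 8.89 and 170 CPM in low-share cells, a difference of -0.20 ± 0.288 (adjusted p = 0.999). It was higher in high-share cells at 0 h and after treatment. TSC22D3, the leucine zipper protein GILZ, stood at 2.91 and 66.8 CPM and at 3.97 and 93.4 CPM (0.12 ± 0.416, adjusted p = 0.999). DUSP1 stood at 31.8 and 118 CPM and at 54.9 and 163 CPM, so it was lower in high-share cells at both points (0.33 ± 0.142, adjusted p = 0.999). The glucocorticoid receptor gene NR3C1 stood at 562 and 396 CPM and at 360 and 280 CPM (-0.10 ± 0.0867, adjusted p = 0.999).

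The levels of glucocorticoid-induced genes had no common direction between the groups in whole RNA. Of 39 genes, 13 were higher in high-share cells and 16 lower, beside 34.6% and 33.9% over all genes. Their median was -0.06, which became 0.06 with total scaling. In new RNA 7 of 34 were higher and 24 lower (median -0.71), beside 34.8% and 34.8% over all genes. Under the intronic ranking they were 23 higher and 4 lower of 39 in whole RNA (median 0.26) and 15 higher and 7 lower of 34 in new RNA (median 0.18). Over all genes 15.1% were then higher and 15.0% lower in whole RNA, and 14.2% and 11.2% in new RNA.

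The 1 gene called in this test was the long noncoding RNA AC007131.2, singled out after its values were seen. In low-share cells it stood at 40.9 CPM at 0 h, from 299 counts, and at a mean of 3.48 CPM in the treated cultures. In high-share cells it stood at 4.25 and 3.66 CPM. The low-share cells of the 0 h culture were thus alone in their level (difference 3.37 ± 0.342, adjusted p = 0.0001), and with 1 culture at 0 h the p-value does not separate dexamethasone from that culture. Over all A549 cells 1% of cells held 77.2% of its counts, with 178 in a single cell.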

How the data were processed

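Single-cell RNA counts of 7404 A549 cells were used, from the authors' deposited tables of whole counts and of newly synthesised counts per gene and cell, with per-cell exonic and intronic counts and a doublet score deposited by the authors. The builds were hg19 and mm10, and the tools named are STAR 2.5.2b, Trim Galore 0.4.1, Picard 1.105 and SAMtools 1.3, per the submitters' processing notes. For duplicates, strand and the call of new molecules, the handling was not given in the sources used here. Counts were used as deposited, with no filter on cells and no removal of doublets.

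The members and gene lists were chosen with earlier results of these data known. Sums per culture and group were tested with edgeR 4.0.16 (R 4.3.3; quasi-likelihood, TMM, filterByExpr with a minimum count of 10, culture as a block, 5 residual degrees of freedom, and 4 for the test of dexamethasone by group). The block pairs both groups of cells of the same culture. Estimates of spread were shared across genes, so the p-values do not rest on these degrees of freedom alone. Genes named are the 10 with the largest change in each direction (3 in pre-existing RNA), up to 4 per list, and a fixed set. Genes of largest change had to be called, average at least 20 CPM over the sums and keep the same direction in every culture. Intronic and depth bins were 10 per culture. The alternatives were DESeq2 1.42.0, total scaling, no filter, no block, other rankings, the outer 10% of cells, leaving out each culture and leaving out 1% of cells. The test was checked on simulated counts.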

Additional observations from a re-analysis of the deposited data

Results flagged for a closer look

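For the genes named above, the log2 difference between high-share and low-share cells was looked at in each of the 6 cultures. Per-cell measures of each group were looked at in the same way. In 3 of the 103 series of both kinds (2.91%), all of them for genes, 1 culture stood far from the other 5. Chance alone gives this in about 1 of 20 series. UBE2C in whole RNA was at -0.945 in the 0 h culture, against a median of -1.12. TAGLN in pre-existing RNA was at -1.91 in the 4 h culture, against a median of -1.05. HIST1H1D in new RNA was at -2.41 in the 10 h culture, against a median of -1.57. In each case the direction was that of the other cultures, which for UBE2C and TAGLN was a condition of being named. For AC007131.2 in whole RNA, the change from 0 h to the treated cultures differed between high-share and low-share cells by 3.37 on the log2 scale, through its level in the low-share cells of the single 0 h culture. With 1 culture at 0 h, a property of that culture's cells cannot be told apart from a response to dexamethasone.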

How the results depend on the processing

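Ranking the cells within bins of the intronic percent changed most, and the cause was not tested. It called 2312 genes higher and 2307 lower in whole RNA, and for new RNA 1678 and 1323, with new shares of 23.0% and 18.1% and intronic percents of 15.7% and 15.1% in the upper and lower cells. Of 87 gene results followed, 47 held, 17 were no longer called and 23 were called in the opposite direction. Of the 17, 5 lay on the other side of 0 without a call: COX8A in whole (0.0065) and new RNA (0.11), IER5 (0.016) and FKBP5 (-0.00088) in new RNA and NKAIN3 (-0.0073) in pre-existing RNA. Called in the opposite direction in whole RNA were MXD3 (0.24), NEAT1 (-0.23), GAPDH (0.066), KRT8 (0.24), KRT18 (0.17), HIST1H1D (1.60), RRM2 (0.089), CDK1 (0.70) and NR3C1 (-0.074). In new RNA these were MXD3 (1.33), LGALS1 (0.36), PSRC1 (1.80), CDCA3 (1.20), PLK1 (0.90), SAPCD2 (0.97), UBE2C (0.30), HIST1H1D (1.13), H2AFX (0.77), RRM2 (1.01), CDK1 (1.09), TOP2A (0.67) and TSC22D3 (0.15), and in pre-existing RNA CDK1 (0.65). Taking the outer 10% of cells gave new shares of 31.5% and 12.7% and intronic percents of 26.2% and 7.68%, and ranking within each index gave 21.2% intronic counts in the upper cells. Of the 87 results, 86 held with DESeq2, 86 with total scaling, 86 within depth bins and 80 without the replicate block, which called 4553 higher and 4392 lower in whole RNA. Without the 1% of cells richest in each gene, 23 of the 87 values moved by more than the spread between cultures, among them LRP1B (0.64 in whole and 0.22 in new RNA) and CADM2 (0.93 and 0.60). Without the low-count filter the dexamethasone test called 24 genes in whole RNA and 2 in new RNA. Leaving out each treated culture gave 1 to 2 in whole RNA (2 without 8 h). Leaving out each culture in turn changed no call of a named gene except for FKBP5 and ALDH1A1. The alternative without mitochondrial genes was not run, since the A549 gene table used here lists none of them. Depth limited new RNA most, with sums as low as 420125 counts in the test.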
